A study of Mus musculus with 12 samples.

Results

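The 10 heat shock genes were read in lung and liver of mice with and without a mammary tumor, namely the HSP70 and HSP110 genes Hspa1a, Hspa1b, Hspa2, Hspa8 and Hsph1, the small heat shock gene Hspb1, the HSP90 genes Hsp90aa1 and Hsp90ab1, and the mitochondrial chaperonin genes Hspd1 and Hspe1. All probe sets listed with 1 of these symbols were taken, which gave 19 probe sets for 9 genes out of 22626 probe sets on the array. Hspa8 had 4, Hspa1b and Hsp90aa1 3 each, Hspb1, Hsph1 and Hspe1 2 each, and Hspa1a, Hspa2 and Hspd1 1 each. Hsp90ab1 was listed with no probe set and was not analysed here. RNA was taken from female mice of the nude NCR strain, which have no functional thymus, so that immune responses that need T cells are largely missing in all groups. The tumor-bearing mice had been injected orthotopically with 4T1, a line of mouse mammary carcinoma, and were examined 7 days later, and the controls had received phosphate-buffered saline (PBS) instead. Tumor-bearing lung, control lung, tumor-bearing liver and control liver each had 3 Affymetrix arrays, which makes 12 arrays in 4 groups. The sample titles call the organs of the tumor-bearing mice pre-metastatic. Each probe set has 1 expression value per array on a log2 scale, on which a difference of 1 is a doubling, and precision is limited by having 3 arrays per group. By the design text both organs came from the same 3 control and 3 tumor-bearing mice, but no label says which lung and liver arrays share a mouse, so the comparisons between organs treat the arrays as independent. The labels give no age.

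Heat shock proteins are chaperones that bind unfolded proteins and help them to fold or to be degraded. HSP70 proteins bind and release clients in an ATP cycle that J-domain proteins start and nucleotide exchange factors such as HSP110 reset, HSP90 finishes the folding of kinases and steroid receptors, small heat shock proteins hold unfolded clients without ATP, and HSP60 with its lid HSP10 forms a folding cage in mitochondria. Under heat or other stress that unfolds proteins, heat shock factor 1 (HSF1) binds heat shock elements, inverted repeats of GAA and TTC units, and raises transcription of the stress-inducible genes, whereas constitutive members such as Hspa8 are made in nearly all cells at rest. Hspa1a, Hspa1b, Hsph1, Hspb1 and Hsp90aa1 were classed as stress-inducible, Hspa8, Hspa2 and Hsp90ab1 as constitutive, and the mitochondrial Hspd1 and Hspe1 were kept apart.

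Promoter sequences are shown first because the inducible class is known for its heat shock elements, and because Hspa1a and Hspa1b are so alike that arrays may not separate them. Promoter windows of 300 bases (250 before and 50 after a start site; RefSeq, GRCm38.p6) were given for 7 of the 10 members, with 9 windows in all. Hspa8, Hsp90aa1 and Hsp90ab1 had no entry. Below, capitals mark matches to a pair of inverted units, GAANNTTC or TTCNNGAA, each of which reads the same on both strands. The 250 bases before the start are shown for Hspa1a (chr17:34972157-34972406, minus strand) and Hspa1b (chr17:34959239-34959488, minus strand), and short stretches around the match for Hspb1 (chr5:135887792-135887839, plus strand), Hsph1 (chr5:149636351-149636380, minus strand) and Hspe1 (chr1:55088053-55088082, plus strand).
Hspa1a: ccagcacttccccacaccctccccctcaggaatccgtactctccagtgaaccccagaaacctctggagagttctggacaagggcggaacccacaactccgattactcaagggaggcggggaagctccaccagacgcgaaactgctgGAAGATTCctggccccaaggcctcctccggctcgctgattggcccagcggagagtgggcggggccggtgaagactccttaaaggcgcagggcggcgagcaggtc
Hspa1b: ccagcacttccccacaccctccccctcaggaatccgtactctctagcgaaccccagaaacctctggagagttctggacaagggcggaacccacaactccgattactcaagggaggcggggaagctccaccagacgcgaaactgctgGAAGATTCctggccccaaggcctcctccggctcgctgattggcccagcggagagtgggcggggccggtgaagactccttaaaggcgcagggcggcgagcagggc
Hspb1: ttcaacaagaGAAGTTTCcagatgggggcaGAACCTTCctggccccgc
Hsph1: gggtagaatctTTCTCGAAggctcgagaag
Hspe1: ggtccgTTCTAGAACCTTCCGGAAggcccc

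Hspa1a and Hspa1b, which code for the inducible HSP70 proteins and lie 10120 bases apart on chromosome 17, matched at 247 of the 250 bases before the start, and both had GAAGATTC with its first base at -104. Those bases are not read by the array, and transcript and probe sequences were not compared here. Array probes for such similar genes may bind the transcripts of both, so the probe sets of these genes cannot be assigned to a single copy with certainty. Hspb1 had GAAGTTTC at -117 and GAACCTTC at -97. Hspe1 had 4 units in a row from -89, which hold 3 overlapping pairs and both 3-unit forms. A 3-unit form is a pair with 1 more unit at the same spacing, TTCNNGAA followed by another TTC unit or GAANNTTC followed by another GAA unit, and each is the reverse complement of the other. That element lies in the 216 bases between the divergent starts of Hspe1 and Hspd1, so that Hspd1 carries the same letters on the other strand from -144. The window of another Hspd1 start had no match. Hsph1 had TTCTCGAA at -54 and a 3-unit match, TTCTGGAAAGTTC, at 16 bases after the start. Counted from another Hsph1 start, the same letters lie at -33 and at 37 bases after it. The window of Hspa2 had no match, which says only that these letters are not in it. A pair of units was found for 6 of the 7 members against 17% of 27025 genes, and a 3-unit element for 3 of 7 against 0.662%. These counts are not of separate elements, since Hspd1 and Hspe1 share theirs and Hspa1a and Hspa1b have the same match. A match is a description of the sequence and not a bound site.

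The arrays carried their labelled tissues, but the lung arrays were uneven in hepatocyte and cardiac muscle markers, whose source was not tested. The mean of 4 alveolar type II cell markers read 14.86 to 15.15 in lung and 2.32 to 3.94 in liver. The mean of 7 hepatocyte markers read 15.82 to 15.99 in liver. Among lungs it stood at 10.15 for tumor replicate 1 and at 11.15 for control replicate 3, while the other 4 arrays read 3.94 to 5.80, so results in lung are also given without those 2 arrays. The mean of 7 cardiac muscle markers ranged from 6.28 to 9.40 in tumor and from 4.23 to 10.17 in control lungs, and read 2.26 to 2.39 in liver, near the lowest value of 2.04. Neutrophil markers (8 of 9 measured) read 9.87 to 10.71 in tumor lungs and 5.55 to 6.65 in control lungs, 4.81 to 5.10 and 3.30 to 4.40 in liver. Of the neutrophil genes above 4 on every lung array, Ngp read 11.44 to 12.24 against 4.88 to 7.35 and passed (limma adjusted p = 0.0373), and S100a8, S100a9 and Csf3r did not (differences of 2.82, 2.96 and 2.37, adjusted p = 0.1, 0.0732 and 0.0718). The mean of 3 airway markers read 10.97 to 11.23 in tumor and 11.43 to 12.26 in control lungs, and of these Scgb1a1 differed by 0.04, Scgb3a2 by -0.24 and Foxj1, a gene of ciliated cells, by -2.31 (3.07 to 3.39 against 4.17 to 6.42, so that it was above 4 in control lungs only). The part of these cell types in the results below was not tested, and in whole tissue fewer cells of a type and less RNA per cell cannot be told apart. Within groups, the correlation between arrays was 0.989 to 0.996.

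In lung, the heat shock probe sets lay lower in the tumor-bearing mice with 1 exception, but 1 of these differences passed the test over all probe sets. Of the 19 probe sets, 18 had a lower mean in tumor-bearing mice and 1, an Hspa8 probe set, a higher mean, with a median change of -0.88 against -0.02 over all 13315 probe sets tested, of which 54.7% had a lower mean. Tumor and control arrays did not overlap for 13 of 19, all lower, where 9.98% of all tested had every tumor array below every control array and 8.26% had every one above. At an adjusted p under 0.05 (limma, Benjamini-Hochberg over all probe sets tested), 1 of 19 passed, Hsp90aa1, where 0.0751% of all tested passed as lower and 0.33% as higher. At an unadjusted p under 0.05 the count was 12 lower and 0 higher (6.71% and 6.02% of all tested). Several of the 19 probe sets read the same gene, so they are not independent entries. With 1 probe set per gene, 9 of 9 genes were lower, 6 of them at an unadjusted p under 0.05 (limma). The median change over all 7907 genes was -0.01. In that fit 1 member passed, Hspa2, where 58 of all genes did. Without the 2 lung arrays rich in hepatocyte transcripts 18 of 19 were still lower, the median change was -0.55 and 0 passed by limma (8 at an unadjusted p under 0.05), as did 0 of all probe sets tested.

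**Figure D1:**
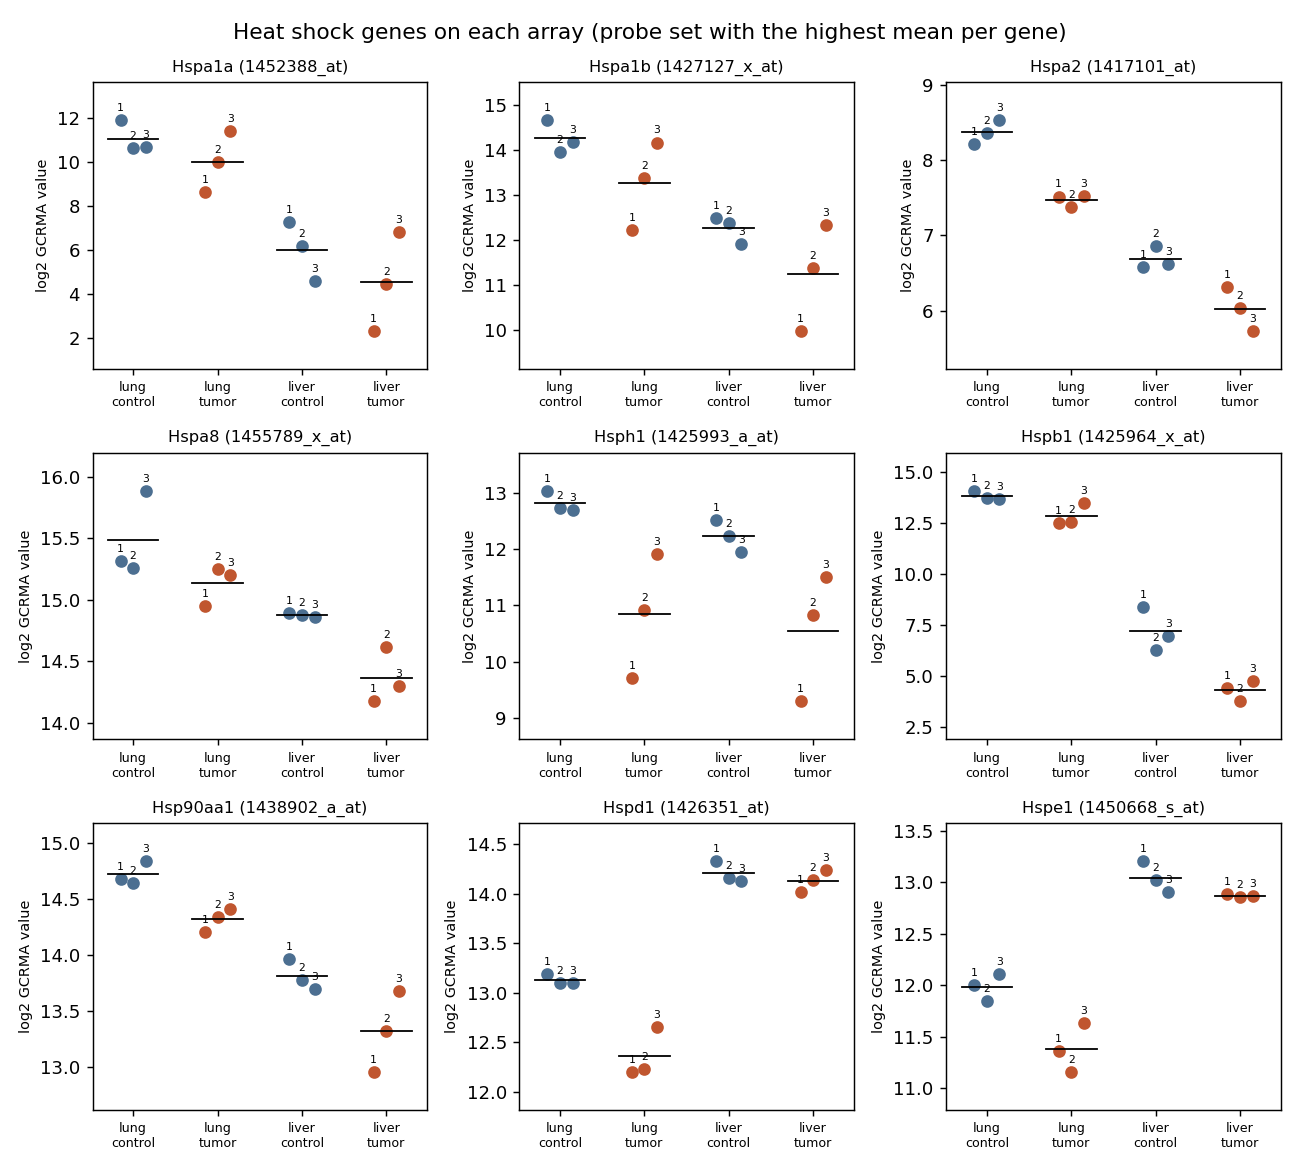
Log2 values (vertical axis, its range set for each panel and not starting at 0) of 9 member genes on the 12 arrays, each gene by its probe set with the highest mean; points are arrays with their replicate number, blue for control and red for tumor-bearing mice, and black lines are means of 3. The tumor points of Hsph1 lie below all controls in both organs but run from 9.72 to 11.92 in lung, while those of Hspa1b reach the controls.

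Hsp90aa1, which codes for the inducible cytosolic HSP90, was the member whose fall in lung passed. Its probe set 1426645_at read 12.96, 13.13 and 13.24 in tumor lungs and 14.01, 14.02 and 14.02 in control lungs. The groups were apart and the control arrays nearly equal, and the level was 1.88-fold lower in tumor-bearing mice (log2 change -0.91 ± 0.10 SE, 95% interval -1.15 to -0.66, adjusted p = 0.0367). The call was lost when any 1 of the 6 arrays was left out (adjusted p between 0.087 and 0.169). It was also lost without the 2 arrays rich in hepatocyte transcripts (adjusted p = 0.431), without the expression filter and with the replicate number as a block. In all it was lost under 10 of the 16 alternatives run for this probe set. With 1 probe set per gene, Hsp90aa1 entered by 1438902_a_at and did not pass (limma adjusted p = 0.181). The other probe sets of the gene also did not overlap between groups, at 13.13 to 13.30 against 13.79 to 14.03 (1437497_a_at, change -0.64 ± 0.11, adjusted p = 0.0905) and 14.20 to 14.40 against 14.64 to 14.83 (1438902_a_at, -0.40 ± 0.10, adjusted p = 0.204). In liver the same 3 probe sets read lower by -0.70, -0.79 and -0.49, with adjusted p of 0.209, 0.209 and 0.197. There, 1426645_at read 11.32, 11.87 and 12.40 in tumor and 12.85, 12.44 and 12.41 in control mice, so the third tumor array lay just under the controls.

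Hsph1, the HSP110 nucleotide exchange factor of HSP70, showed the largest differences of the lung probe sets and also some of the largest spreads. Its probe set 1425993_a_at read 9.72, 10.92 and 11.92 in tumor lungs against 13.04, 12.73 and 12.70 in control lungs. In liver it read 9.29, 10.83 and 11.51 against 12.53, 12.24 and 11.95. All tumor arrays lay below all controls in both organs, and the tumor arrays spread over more than 2 log2 units while the controls stayed close together. The level averaged 3.92-fold lower in tumor lungs (log2 change -1.97 ± 0.54, interval -3.31 to -0.64, adjusted p = 0.235) and 3.23-fold lower in tumor livers (-1.69 ± 0.57, -3.12 to -0.26, adjusted p = 0.148), and neither passed. The second probe set, 1423566_a_at, gave 4.27-fold and 3.07-fold (adjusted p = 0.204 and 0.202), with groups apart in both organs.

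Hspa1a and Hspa1b, the inducible HSP70 genes, overlapped between the groups in both organs. Hspa1b probe set 1427127_x_at read 12.24, 13.39 and 14.17 in tumor and 14.67, 13.97 and 14.19 in control lungs, and 9.98, 11.38 and 12.35 in tumor against 12.50, 12.38 and 11.91 in control livers. Tumor replicate 1 was far below the controls in each organ while tumor replicate 3 lay among them. The mean change was -1.01 ± 0.50 in lung (interval -2.25 to 0.23, adjusted p = 0.476) and -1.03 ± 0.60 in liver (-2.53 to 0.47, adjusted p = 0.337). Hspa1a (1452388_at) read 8.64, 10.02 and 11.39 against 11.90, 10.62 and 10.69 in lung. In liver it read 2.34, 4.46 and 6.84 against 7.28, 6.20 and 4.62, so that its tumor arrays ran from near the lowest value to above 2 of the 3 controls. Its changes of -1.05 ± 0.75 and -1.48 ± 1.28 have intervals reaching 0.79 and 1.69 on the upper side (adjusted p = 0.612 and 0.5). The other Hspa1b probe sets, 1427126_at and 1452318_a_at, differed by -1.03 and -0.80 in lung and by -1.02 and -0.99 in liver, with adjusted p from 0.252 to 0.544.

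Hspb1, which codes for the small heat shock protein HSP25 (HSP27 in humans), differed most in liver. Probe set 1425964_x_at read 4.42, 3.76 and 4.75 in tumor livers and 8.39, 6.28 and 6.97 in control livers. No tumor array reached a control array and the mean was 7.48-fold lower (log2 change -2.90 ± 0.58, interval -4.35 to -1.46), the smallest adjusted p of the members in liver (0.0634), but it did not pass. The second probe set, 1422943_a_at, read 2.62, 3.15 and 3.31 against 7.10, 3.31 and 5.64, with too few arrays above 4 to be tested. In lung, where the gene is strongly expressed, 1425964_x_at read 12.52, 12.57 and 13.48 in tumor against 14.10, 13.74 and 13.70 in control mice. These groups were apart as well, 1.98-fold (-0.99 ± 0.29, -1.70 to -0.27, adjusted p = 0.26), and 1422943_a_at gave -0.94 ± 0.29 (adjusted p = 0.277). The lung change minus the liver change of 1425964_x_at was 1.92 ± 0.69 (0.39 to 3.44), a difference that did not pass over all probe sets (adjusted p = 0.193). For 1422943_a_at that difference was 1.38 ± 1.05 (-0.96 to 3.72, adjusted p = 0.528). Both rest on liver values near or below the filter of 4 in tumor-bearing mice.

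Hspa2, an HSP70 abundant in testis and present at modest levels elsewhere, had tight groups. It read 7.52, 7.38 and 7.52 in tumor lungs against 8.22, 8.37 and 8.53 in control lungs, and 6.32, 6.03 and 5.73 in tumor livers against 6.57, 6.85 and 6.62. The groups were apart in both organs. In lung it averaged 1.87-fold lower (-0.90 ± 0.11, -1.18 to -0.62), with adjusted p = 0.0528 over all probe sets and 0.0391 when each gene entered by 1 probe set. Its call turns on the setting, with adjusted p (limma) from 0.0144 to 0.44 over the alternatives. In liver it averaged 1.58-fold lower (-0.66 ± 0.17, -1.08 to -0.23, adjusted p = 0.099).

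Hspa8, the constitutive HSC70 and one of the most abundant chaperones, split by probe set. The probe set 1420623_x_at read 14.23, 14.51 and 14.37 against 14.92, 15.02 and 15.03 in lung, and 13.59, 14.08 and 14.21 against 14.41, 14.27 and 14.35 in liver. Its groups did not overlap, with changes of -0.62 ± 0.10 in lung (adjusted p = 0.0871) and -0.38 ± 0.17 in liver (adjusted p = 0.234). The probe sets 1420622_a_at and 1455789_x_at gave -0.64 and -0.35 in lung and -0.30 and -0.51 in liver, and none passed. The probe set 1431182_at went the other way. It read 8.28, 8.72 and 7.82 against 8.06, 7.77 and 7.83 in lung (0.38 ± 0.24, adjusted p = 0.563) and 10.16, 10.41 and 10.08 against 9.51, 9.90 and 9.12 in liver (0.71 ± 0.22, 0.17 to 1.25, adjusted p = 0.122), where all tumor arrays lay above the controls. Which transcript of the gene each probe set reads was not examined here.

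The mean changes of the mitochondrial pair were larger in lung than in liver, but no difference between the organs passed. Hspd1, the HSP60 subunit, read 12.20, 12.23 and 12.65 in tumor lungs against 13.19, 13.10 and 13.10 in control lungs, 1.7-fold lower with groups apart (-0.77 ± 0.14, -1.12 to -0.42, adjusted p = 0.121). In liver it read 14.02, 14.14 and 14.24 against 14.33, 14.16 and 14.13, with overlap and a change of -0.08 ± 0.09 (-0.31 to 0.16, adjusted p = 0.639). The difference between the organs was -0.69 ± 0.18 (-1.09 to -0.29, adjusted p = 0.0931). Hspe1, the HSP10 lid that shares its promoter region and printed element with Hspd1, read 11.36, 11.16 and 11.64 against 12.002, 11.85 and 12.11 in lung by 1450668_s_at (-0.60 ± 0.15, adjusted p = 0.205). In liver it read 12.89, 12.85 and 12.87 against 13.21, 13.02 and 12.90 (-0.17 ± 0.09, -0.41 to 0.06, adjusted p = 0.306), and the difference between organs was -0.43 (-0.84 to -0.02, adjusted p = 0.267). The other Hspe1 probe set, 1422579_at, gave -0.88 ± 0.18 in lung and -0.42 ± 0.16 in liver (adjusted p = 0.152 and 0.174). Its difference between the organs was -0.46 ± 0.25 (-1.02 to 0.11, adjusted p = 0.381).

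In liver, then, 18 of 19 probe sets again had a lower mean in tumor-bearing mice (58% of the 12993 tested did), with a median change of -0.70 over the 19 and -0.05 over all tested, and 0 of the 18 tested passed by limma, where 1.53% of all tested did (0.939% lower and 0.593% higher). At an unadjusted p under 0.05, 6 were lower and 1 higher (16.4% and 9.13% of all tested). Tumor and control arrays did not overlap for 12 lower and 1 higher of 19, where 21.1% and 11.6% of all tested were apart that way. With 1 probe set per gene, 9 of 9 genes were lower, 5 of them at an unadjusted p under 0.05 (limma). The median change over all 7712 genes was -0.07, and 0 members passed, where 144 of all genes did. As a test of the organs against each other, the lung change minus the liver change passed for 0 of 19 probe sets (1.33% of 14220 tested), with 3 at an unadjusted p under 0.05 (17.6% of all tested). The intervals of that difference were wide for the inducible HSP70 and HSP110 genes, -1.84 to 1.87 for Hspa1b 1427127_x_at and -2.15 to 1.59 for Hsph1 1425993_a_at, so these data do not show that the organs were alike.

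**Figure D2:**
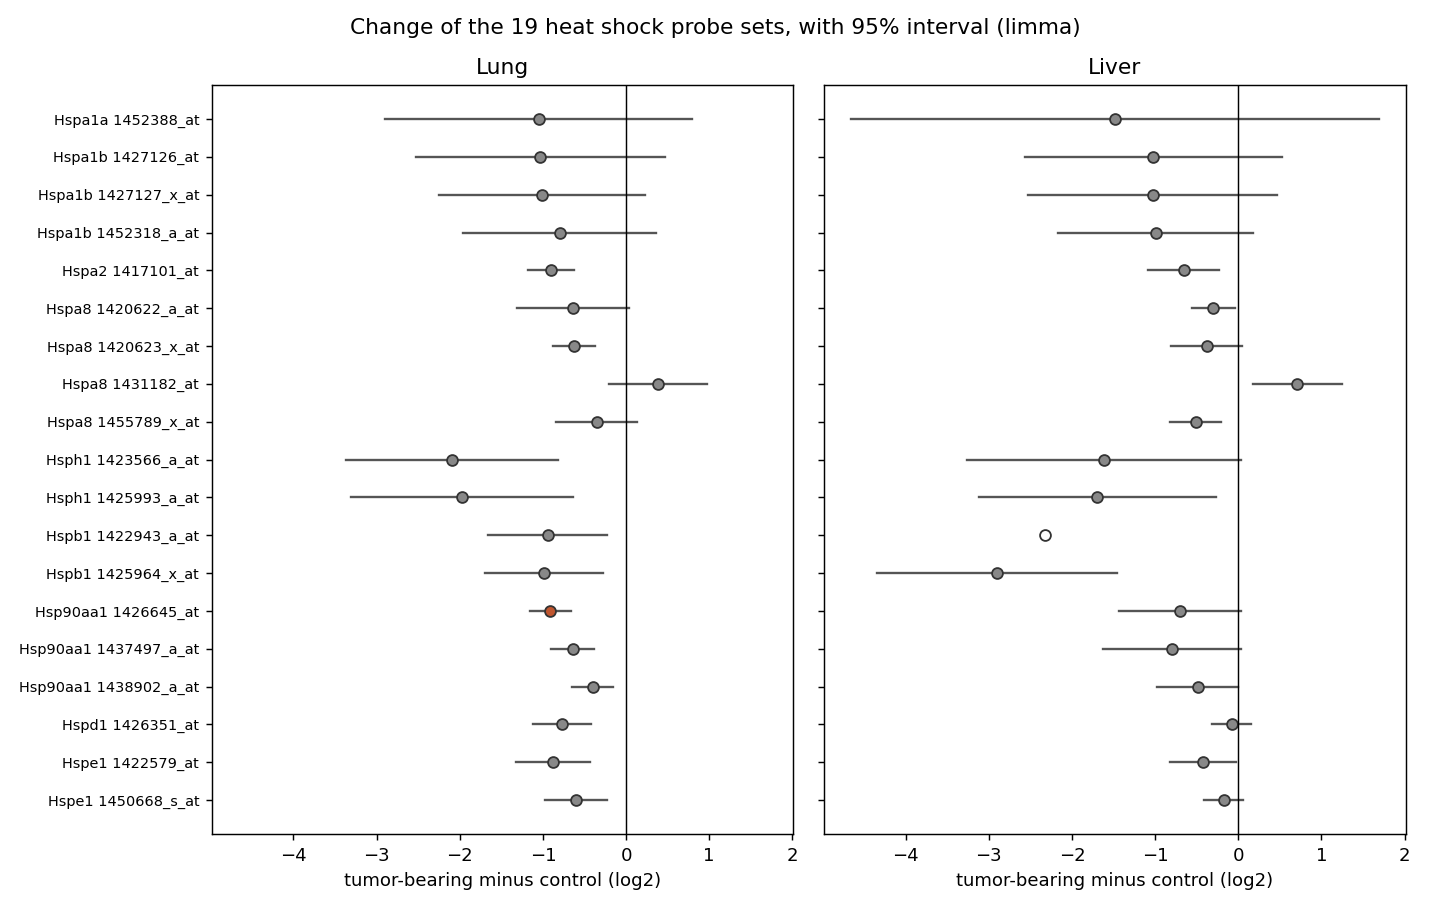
Log2 change, tumor-bearing minus control, of each member probe set in lung and in liver, with 95% intervals from limma as bars, a red point where the adjusted p is under 0.05 and an open point where a probe set was not tested. All but the Hspa8 probe set 1431182_at lie below 0 in both organs, and intervals are wide for Hspa1a (-4.66 to 1.69 in liver) and narrow for Hsp90aa1 1426645_at in lung (-1.15 to -0.66).

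The tumor-bearing mice did not differ from controls by the same amount on each array. In lung, replicates 1, 2 and 3 of the tumor group lay below all 3 controls in 18, 17 and 14 of 19 probe sets (32.3%, 36.9% and 28.6% of all tested), with median deviations from the control mean of -1.02, -0.89 and -0.36. In liver the counts were 18, 17 and 12 (44.1%, 35.6% and 39.2%), with medians of -1.25, -0.70 and -0.16. Tumor replicate 1 was the lowest of its group for 14 of 19 probe sets in each organ and tumor replicate 3 the highest for 14 of 19 in each. Tumor replicate 1 of lung is also among the arrays rich in hepatocyte transcripts, whose part here was not tested. The labels do not say that a replicate number marks the same mouse in both organs. Among control livers, replicate 1 was the highest for 16 of 19. The SD of the tumor group was larger than that of the control group for 14 of 19 in lung and 15 of 19 in liver, against 60.7% and 60.5% of all tested.

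The mean of the stress-inducible members differed between the arrays more than that of the constitutive ones, but the changes of single genes overlapped. Each gene entered by its probe set with the highest mean, as its deviation from the control mean. In lung the mean of the 5 inducible genes read -1.88, -1.10 and -0.27 on the tumor arrays and 0.33, -0.21 and -0.12 on the control arrays, whereas the mean of the 2 constitutive genes measured read -0.70, -0.62 and -0.57 against -0.16, -0.12 and 0.28. In liver the inducible mean read -2.51, -1.56 and -0.49 against 0.62, -0.14 and -0.48, and the constitutive mean -0.53, -0.46 and -0.76 against -0.04, 0.09 and -0.04. The third tumor array was thus close to the controls in the inducible mean and not in the constitutive one. The mitochondrial pair read -0.78, -0.86 and -0.41 against 0.04, -0.08 and 0.05 in lung and -0.17, -0.13 and -0.07 against 0.14, -0.03 and -0.11 in liver. Changes of single genes in lung ran from -1.97 to -0.40 (inducible) and from -0.90 to -0.35 (constitutive). In liver they ran from -2.90 to -0.49 and from -0.66 to -0.51. The median change of the classes was -1.01 inducible, -0.63 constitutive and -0.69 mitochondrial in lung, and -1.48, -0.58 and -0.13 in liver. The inducible median was thus -0.38 from the constitutive one in lung and -0.90 in liver, but without tumor replicate 1 it became 0.10 and 0.21, so the order of the classes rests on that array in each organ. In lung that array is also among those rich in hepatocyte transcripts (marker mean 10.15), and the part of these transcripts in the class values was not tested. The inducible mean in liver includes genes with low values there, beside a lowest value of 2.04 on the arrays. Tumor replicate 1 read 2.34 for Hspa1a, and tumor livers read 3.76 to 4.75 for Hspb1. Hspa1a and Hspa1b enter as separate genes although their probe sets may not separate them. The classes are given as a description, with no test.

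**Figure D3:**
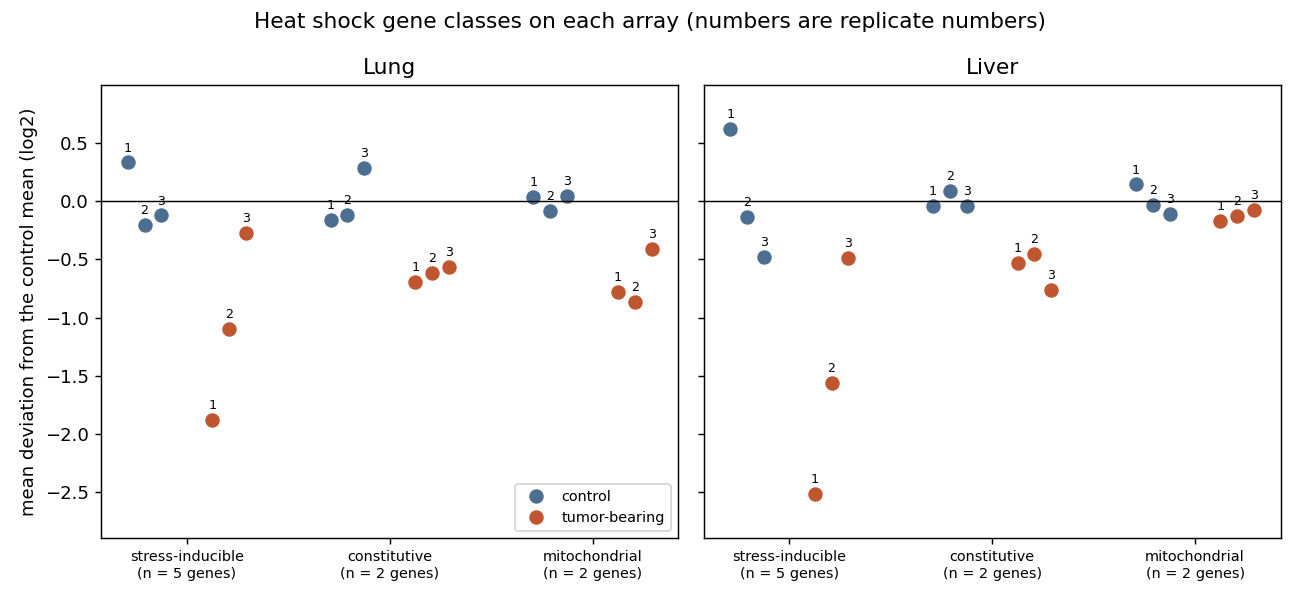
Mean deviation from the control mean (log2) of the stress-inducible, constitutive and mitochondrial members on each array of lung and liver; points are arrays with their replicate number, blue for control and red for tumor-bearing mice. The inducible mean runs from -1.88 to -0.27 over the tumor lungs and from -2.51 to -0.49 over the tumor livers, while the constitutive mean stays between -0.76 and -0.46.

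In control mice most members stood at different levels in the 2 organs, as did most probe sets on the array. Of 19 probe sets, 18 passed between control lung and control liver (78.7% of 13889 tested), 14 higher in lung and 4 higher in liver (44.6% and 34.1% of all tested), beside a median over all of 0.18. Hspb1 was 99.1-fold higher in lung (1425964_x_at, adjusted p = 6.92e-05), Hspa1a 32.8-fold (adjusted p = 0.00105), Hspa1b 3.09-fold to 4.4-fold, Hspa2 3.23-fold (adjusted p = 4.49e-05), and Hsp90aa1 1.88-fold to 2.74-fold. Higher in liver were Hspd1, 2.11-fold (adjusted p = 6.43e-05), both Hspe1 probe sets, 1.8-fold and 2.08-fold, and the Hspa8 probe set 1431182_at, 3.07-fold. Hsph1 was 1.5-fold and 1.51-fold higher in lung. Median centring moved the median of all by -0.47, and with it 14 of 19 passed. Hspa8 1420623_x_at and 1455789_x_at (0.18 and 0.14) and both Hsph1 probe sets (0.13 and 0.11) no longer passed, and Hspa8 1420622_a_at, which had not passed at 0.44 (adjusted p = 0.12), read -0.03, so the lung excess of Hsph1 and of those Hspa8 probe sets depends on the scaling.

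The rest of the chaperone network was read through 60 genes, of which 53 had a probe set. In lung 47 were tested, 40 lower and 7 higher, 0 passed and 20 were lower at an unadjusted p under 0.05 (of all tested, 54.7% had a lower mean and 6.71% were lower at that threshold), with a median of -0.29. In liver 44 were tested, 33 lower and 11 higher, with a median of -0.14 (58% of all tested were lower). There, 0 passed as lower, 11 were lower and 1 higher at an unadjusted p under 0.05 (16.4% and 9.13% of all tested), and 1 passed as higher (0.593% of all tested passed as higher). That gene was Grpel2, a nucleotide exchange factor of mitochondrial HSP70, which read 10.58, 10.60 and 10.68 in tumor livers against 9.81, 9.61 and 9.75 in control livers. It rose by 0.90 ± 0.08 (adjusted p = 0.0314). In lung it read -0.26 ± 0.11 (adjusted p = 0.413), and the difference between the organs passed (-1.15 ± 0.14, adjusted p = 0.00518).

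The HSP90 and HSP70 co-chaperones had a median of -0.83 in lung (9 of 12 lower, 8 of 12 at an unadjusted p under 0.05 against 6.71% of all tested), the lowest of the lists there, and of -0.37 in liver (10 of 12 lower, 5 of 12 at that threshold against 16.4%). Stip1, which links HSP70 to HSP90, read 7.67, 8.33 and 8.61 in tumor lungs against 9.68, 9.52 and 9.52 in control lungs (-1.37 ± 0.25, adjusted p = 0.111), and -0.56 in liver (adjusted p = 0.157). Fkbp5, an immunophilin of the HSP90-bound glucocorticoid receptor and itself a glucocorticoid target, read -1.78 ± 0.64 in lung (adjusted p = 0.34). The J-domain partners Dnaja1, Dnajb1 and Dnajb4 were lower in 3 of 3 in both organs, Dnaja1 by -0.91 ± 0.30 and -0.73 ± 0.20 (adjusted p = 0.303 and 0.105) and Dnajb1 by -0.32 and -1.18 (adjusted p = 0.707 and 0.217). Of HSP70 and HSP110 kin, 5 of 6 tested were lower in lung and 3 of 5 in liver. Hspa4l, an HSP110 relative, read 7.98, 7.74 and 8.65 in tumor against 9.85, 9.74 and 9.67 in control lungs (-1.63 ± 0.24, adjusted p = 0.0757) and -0.79 in liver (adjusted p = 0.0936), and Hspa12b, an endothelial member, read -0.98 ± 0.27 in lung (adjusted p = 0.244).

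The nucleotide exchange factors had medians of -0.26 in lung (8 of 9 lower) and -0.08 in liver (7 of 9), and Bag3, an HSF1 target, read -0.39 in lung and -0.98 ± 0.28 in liver (adjusted p = 0.576 and 0.112). The TRiC chaperonin subunits, which fold actin and tubulin, were lower in 8 of 8 in lung (median -0.27) and in 6 of 8 in liver (-0.12), with Cct7 at -0.40 ± 0.14 in lung (adjusted p = 0.339) and Cct4 at -0.30 (adjusted p = 0.408). Serpinh1, the collagen chaperone HSP47, read -0.65 ± 0.12 in lung (adjusted p = 0.111). The endoplasmic reticulum HSP90, Hsp90b1, and the mitochondrial one, Trap1, read -0.21 and -0.03 in lung (adjusted p = 0.482 for the former). Small heat shock kin were lower in 3 of 5 in lung and 2 of 3 in liver, with Hspb7, a muscle gene, at -1.14 ± 1.47 (adjusted p = 0.786) and Hspb8 at -0.39 ± 0.09 (adjusted p = 0.19). Hspb7 stands beside the uneven cardiac markers of the lung arrays given above, and their part in it was not tested. Of the heat shock factor list only Hsbp1 passed the filter, at -0.12 in lung, and Hsf1 was listed with no probe set.

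**Figure D4:**
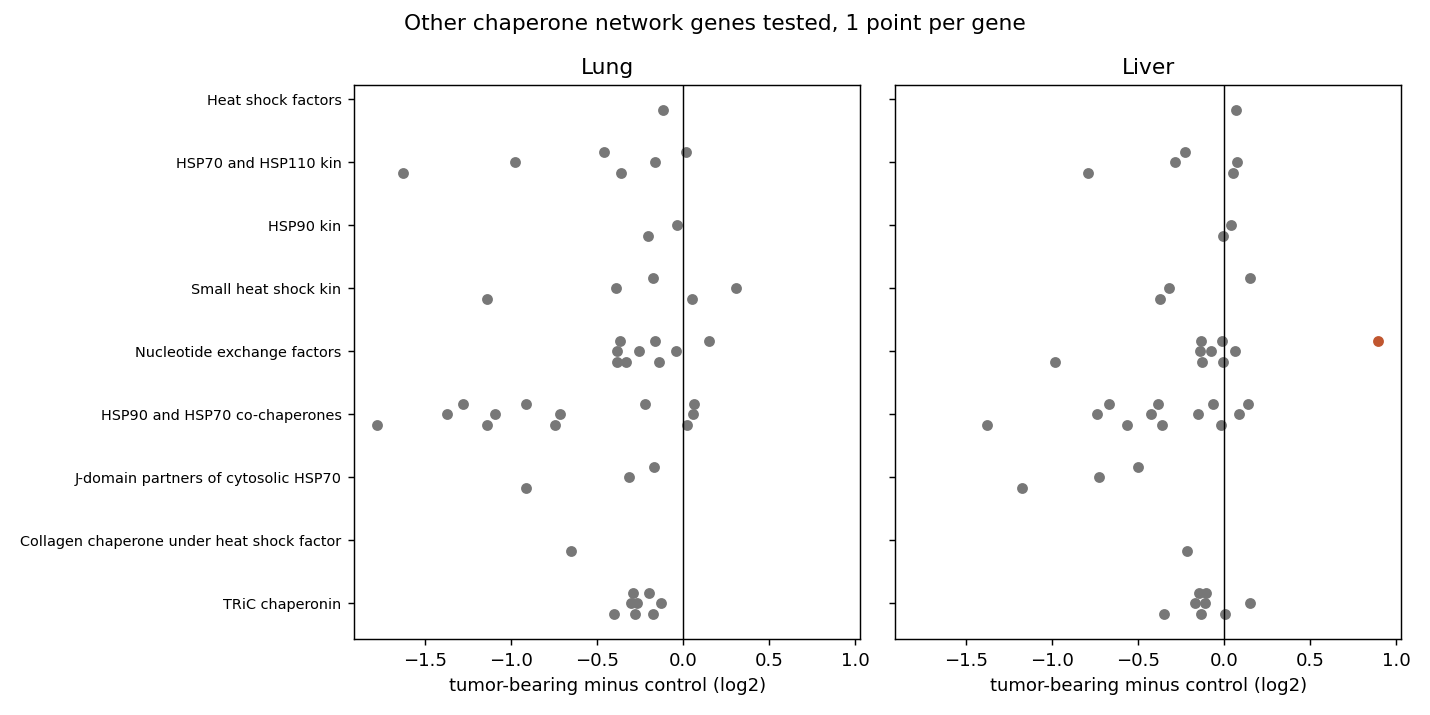
Log2 change, tumor-bearing minus control, of each tested gene of the chaperone network in lung and in liver, by list (vertical axis); the red point marks the gene that passed, Grpel2 in liver. Co-chaperones of HSP90 and HSP70 have a median of -0.83 in lung and -0.37 in liver, and TRiC subunits one of -0.27 and -0.12.

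The genes whose pattern was most like the inducible members were sought over the 12 arrays after the mean of each tissue was taken off, among 7185 genes tested in both organs. Pearson's r with the inducible mean was 0.969 for Slc9a3r2, which codes for a PDZ scaffold protein, 0.969 for Ints8, an Integrator subunit, 0.959 for Bag3, 0.950 for Dnajb1 and 0.944 for Trmt1l. Within the 6 lung arrays r was 0.896 to 0.985 for these 5 genes and within the 6 liver arrays 0.955 to 0.992. The arrays share the tumor contrast and the low first tumor replicate, and no test was made of these correlations. Among the member genes that did not enter the mean, r was 0.498 for Hspa2, 0.680 for Hspd1, and 0.837 and 0.652 for Hspe1 (1422579_at and 1450668_s_at). For Hspa8 it ran from -0.607 (1431182_at) to 0.829 (1420623_x_at). Hspb1, Hspa1b, Hsph1 and Hsp90aa1 enter the mean by another probe set. Their further probe sets read 0.752 for Hspb1 (1422943_a_at) and 0.916 to 0.953 for the others.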

How the data were processed

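Lung and liver RNA of tumor-bearing and control mice was measured on 12 Affymetrix arrays, after Trizol extraction and biotin labelling of cRNA, per the labels' protocols. Per the values, the deposited table holds log2 expression, 1 value per probe set and array. The submitters' processing notes name GCRMA, a probe-sequence background correction with quantile normalization, and limma, with neither version nor settings given in the sources used here. The platform annotation gave 1 gene symbol for 20380 of the 22626 probe sets, several for 691 and no entry for 1555. A probe set was tested when its value was above 4 on at least 3 of the arrays fitted. Each tissue was fitted alone with limma 3.58.1 in R 4.3.3 (lmFit and eBayes), two-sided, with Benjamini-Hochberg adjustment over all probe sets tested and a threshold of 0.05, and each adjusted p in the text is from these fits. The difference between the organs used all 12 arrays and the baseline the 6 control arrays. The fits were tested on simulated data. Members, classes and lists were chosen with earlier results of these data known. All member probe sets are named, and of each other list the genes that passed, otherwise the 2 with the largest change in lung, each gene by its probe set with the highest mean, and also the 5 genes most correlated with the inducible mean. Alternatives covered the filter, 1 probe set per gene, further quantile normalization, median centring, a lower limit of 4, array weights, eBayes with trend and robust options, a single fit of all 12 arrays, a block by replicate number, leaving out 2 lung arrays rich in hepatocyte transcripts and leaving out each array. Both organs came from the same mice per the design text, with no label tying a number to a mouse. Deviations of same-numbered lung and liver arrays correlated at 0.10, 0.02 and 0.06 (tumor) and 0.15, -0.003 and 0.10 (control), and those of tumor and control lungs at -0.27, 0.31 and -0.27. Lung and liver arrays with different numbers correlated at -0.09 to 0.04 (tumor) and -0.14 to 0.008 (control), mostly below the same-numbered ones. Without a label the numbers were not taken as pairs, and whether they mark the same mouse was not settled. P-values measure the spread between these arrays. Gene models and promoter sequences are from RefSeq (GRCm38.p6).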

Additional observations from a re-analysis of the deposited data

How the results depend on the processing

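Each of the 19 member probe sets in lung, and of the 18 tested in liver, kept the sign of its difference under the alternatives run for it, while the number passing was small and moved with the setting. In lung, where 1 of 19 passed, the count was 0 without the filter, 2 with the filter above 6, 2 with median centring, 4 with eBayes trend and robust, 4 with all 12 arrays in 1 fit, 0 with the replicate number as a block, 0 without the 2 arrays rich in hepatocyte transcripts (median difference -0.55) and 0 to 0 when each array was left out. The probe sets behind these counts were not the same in each setting. Hsp90aa1 1426645_at kept its call in 6 of the 16 alternatives run for it, with adjusted p (limma) from 0.0103 to 0.431. Hspa2 passed in 5 of 17. Hsp90aa1 1437497_a_at, Hspa8 1420623_x_at, Hspd1 and both Hspe1 probe sets passed in 1 each. In liver, where 0 passed, the count was 1 with the filter above 6, 2 with eBayes trend and robust and 2 with all 12 arrays in 1 fit. The median difference in liver, -0.68 over the 18 tested, became -0.39 without tumor replicate 1. The difference between organs passed for 1 probe set with array weights, and for 0 to 1 when each array was left out (Hspd1, without lung tumor replicate 3). Between control organs 9 of 9 passed with 1 probe set per gene.

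The inducible minus constitutive median ran from -0.81 to 0.10 in lung and from -1.68 to 0.21 in liver when each array was left out, both turning without tumor replicate 1. The lung minus liver difference changed sign for Hspa1a with the limit of 4 (-0.12) and array weights (-0.22), for Hspa1b 1427126_at with median centring (0.022), for 1427127_x_at with quantile normalization (-0.014) and array weights (-0.47), and for 1452318_a_at with array weights (-0.23). When each array was left out it ran from -0.67 to 1.58 for Hspa1a, -0.66 to 0.61, -0.61 to 0.57 and -0.30 to 0.65 for Hspa1b 1427126_at, 1427127_x_at and 1452318_a_at, -1.21 to 0.075 and -0.90 to 0.29 for Hsph1 1423566_a_at and 1425993_a_at, and -0.48 to 0.065, -0.16 to 0.42 and -0.093 to 0.27 for Hsp90aa1 1426645_at, 1437497_a_at and 1438902_a_at.

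Over all probe sets 54 passed in lung against 9 without the filter, 108 with eBayes trend and robust, 83 with array weights, 328 with all 12 arrays and 0 to 6 when each array was left out. In liver 199 passed against 109 without the filter, 507 with the filter above 6, 302 with median centring, 556, 341 and 1067 with those 3 fits and 0 to 4 when each array was left out. With the replicate number as a block the lung fit called 2, the liver fit 0 and the difference between organs 22, the last against 189. Within an organ that block joins tumor and control arrays of the same number, which by the design text are from different mice. The number of arrays limits the precision.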
